A study of Mus musculus with 4 samples.

Results

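The genes described here encode the contractile apparatus, the calcium handling proteins and the secreted hormone of cardiac muscle, measured in the lung. The members were taken by symbol: Myh6, Myl7, Myl4 and Myl2 of the thick filament, Actc1, Tnnt2 and Tnni3 of the thin filament, Ryr2 and Sln of calcium handling, and the hormone gene Nppa. They are 10 of the 23282 rows in each lung profile, and all 10 were read in every library. Lung RNA of male CDF1 mice was profiled in 4 libraries, 1 for each group. The normal control group, E(-)T(-), neither exercised nor carried tumor, and the normal exercise group, E(+)T(-), ran on a treadmill at high intensity. The cancer control group, E(-)T(+), was given CT26 cells by tail vein injection, which are a mouse line of colorectal carcinoma, and the cancer exercise group, E(+)T(+), was given the same cells and also exercised. Wherever 4 values follow each other below, they stand in the order in which these groups were just named. The labels give postnatal day 28 and 10 mice for every group. The study's methods give that age for purchase and place tissue collection at the end of the experiment that followed, so it was not the age at sampling. The study took calf muscle from 1 representative mouse per group and describes the lung profiling as similar, without saying for the lung whether a library came from 1 mouse or a pool. There are no replicates, and no difference between groups below has a replicate check or a p-value.

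In the mouse, sleeves of cardiac muscle extend from the left atrium along the pulmonary veins into the lung, so that whole lung RNA holds transcripts of beating muscle. This muscle resembles that of the atrium: it uses the atrial light chains Myl7 and Myl4 where the ventricle uses Myl2 and Myl3, it expresses sarcolipin, and it can release atrial natriuretic peptide. Force arises when calcium leaves the sarcoplasmic reticulum through the ryanodine receptor and binds the troponin complex on the actin filament, which then lets myosin attach. Lung RNA could also hold heart tissue carried over at dissection, and these sources cannot be told apart here. In a bulk sample, fewer cardiac muscle cells and less RNA per cell cannot be told apart either.

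The libraries held 9354512 to 13368049 reads over 16287 to 16599 rows with a read. The reads were recovered from the deposited log2 values, and intervals are exact and cover counting error only. Hemoglobin transcripts took 14.3%, 14.2%, 1.43% and 31.4% of reads. Together the 10 cardiac genes gave 167 CPM, or reads per 1000000 reads of the library, in the normal control (95% Poisson interval 160 to 174) and 166 CPM in the normal exercise library (159 to 173). They gave 64.9 CPM in the cancer control (59.8 to 70.3) and 97.1 CPM in the cancer exercise library (91.9 to 103). The summed level was thus alike in both tumor-free libraries, lowest in the resting tumor-bearing library and intermediate in the exercised tumor-bearing library.

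The label of the gene set was examined with markers of the heart chambers. In the tumor-free libraries the atrial light chain Myl7 made up 94.2% (Clopper-Pearson 90.7 to 96.6) and 94.9% (91.7 to 97.1) of the reads of Myl7 and Myl2 together. The ventricular transcription factor gene Irx4 had no read in any library, and neither had the atrial growth factor gene Bmp10 or the pacemaker channel gene Hcn4. The most read gene of the atrial list was Nr2f2, a transcription factor also expressed by vein endothelium and stroma, with 2169, 1697, 3169 and 1642 reads. It ran opposite to Myl7 and Myl4 and differed by 0.91 (0.83 to 0.99) for tumor at rest. Of the 9 genes of that list, which share Myl7, Myl4, Sln and Nppa with the members, 8 passed the filter on low values, and 6 were lower and 0 higher by 2-fold or more for tumor at rest (25.7% and 20.6% of all tested rows), with a median of -2.47. For exercise with tumor 5 were higher and 1 lower (24.3% and 17.7% of all tested rows), with a median of 1.68. Of the 5 genes of the ventricular list, which shares Myl2 with the members, 4 passed, and 2 (Myh7 and Hey2) were lower and 1 (Myl2) higher for tumor at rest, with a median of -1.69. For exercise with tumor 2 (Myh7 and Hey2) were higher and 0 lower, with a median of 1.44, so that the atrial and ventricular lists had medians on the same side of 0 in each of these comparisons. The floor set for a count of 0, 3 reads, stands at 0.224 to 0.321 CPM at these depths. It is lower than the upper limit that the exact 95% Poisson interval gives for 0 reads. Nkx2-5, a core cardiac transcription factor, had 1, 0, 0 and 2 reads. Myh7, the beta heavy chain of cardiac and slow skeletal muscle, had more reads than Myh6 in both tumor-free libraries, with 375 and 281 against 241 and 241. Of the ventricular list, Myl3 had 131 and 152 reads there against 262 and 252 of the atrial Myl4, and Hey2 had 29, 20, 1 and 23 reads in the 4 libraries. The regulatory light chains in the tumor-free libraries were thus nearly all of the atrial form, and the essential light chains were mixed. Nkx2-5 was at or near 0 reads, and the chamber markers counted here do not separate the vein wall from the atrium.

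The thick filament carries myosin, the motor of contraction. Myh6 (chr14:54941921-54966927, minus strand, GRCm38) encodes the alpha myosin heavy chain. Its level, given as the deposited log2 of the normalized read count plus 1, was 7.68, 7.80, 6.47 and 8.17, from 241, 241, 80 and 246 reads. Myh6 was lowest in E(-)T(+) and highest in E(+)T(+). The next 3 genes are myosin light chains, which bind the neck of the heavy chain.

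Myl7, the atrial regulatory light chain (chr11:5896637-5898782, minus strand), stood at log2 levels of 7.79, 8.00, 4.83 and 6.41, from 259, 277, 25 and 72 reads. Myl4, the atrial essential light chain (chr11:104550663-104595753, plus strand), stood at 7.81, 7.86, 5.18 and 6.95, from 262, 252, 32 and 105 reads. Both atrial light chains were high in the tumor-free libraries, lowest in E(-)T(+) and in between in E(+)T(+). Myl2, the ventricular regulatory light chain (chr5:122100951-122113472, plus strand), had log2 levels of 3.86, 3.88, 5.13 and 4.97, from only 16, 15, 31 and 26 reads. Myl2 ran the other way and was higher in both tumor-bearing libraries. The annotated gene Ccdc63 lies antisense to Myl2 and had 1, 5, 0 and 43 reads, and because the use of strand in counting was not stated, reads of this pair may not be fully separated.

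The thin filament is built on actin and switched by troponin. Actc1, cardiac alpha actin (chr2:114047282-114053548, minus strand), had log2 levels of 8.78, 9.04, 5.83 and 7.79, from 516, 570, 51 and 188 reads. It was the most read of the 10 genes in both tumor-free libraries and followed Myl7 closely across the 4 libraries. Tnnt2, cardiac troponin T, which ties the troponin complex to tropomyosin (chr1:135836354-135852260, plus strand), had log2 levels of 8.33, 8.20, 7.84 and 8.78, from 377, 320, 208 and 375 reads. Tnni3, cardiac troponin I, the inhibitory subunit (chr7:4518305-4524229, minus strand), had log2 levels of 7.37, 7.60, 6.43 and 7.57, from 194, 210, 78 and 162 reads. Both troponins were lowest in E(-)T(+), yet their range was much narrower than that of Actc1. Tnni3 overlaps Dnaaf3 on the same strand, which had 44, 37, 10 and 18 reads, so some reads of either gene may have been given to the other.

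Ryr2, the calcium release channel of cardiac sarcoplasmic reticulum (chr13:11553102-12106945, minus strand), had log2 levels of 5.47, 5.40, 3.83 and 5.17, from 51, 45, 12 and 30 reads. Sln encodes sarcolipin, a small inhibitor of the calcium pump (chr9:53850164-53854560, plus strand). Its log2 levels were 7.12, 6.86, 4.83 and 6.71, from 163, 125, 25 and 89 reads. Both calcium handling genes were lowest in E(-)T(+) and came near the tumor-free levels in E(+)T(+). Nppa, the precursor of atrial natriuretic peptide (chr4:148000722-148002079, plus strand), had log2 levels of 6.37, 5.92, 6.17 and 2.80, from 96, 65, 65 and 5 reads. Nppa was the exception, with similar levels in 3 libraries and a low level in E(+)T(+) alone.

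**Figure D1:**
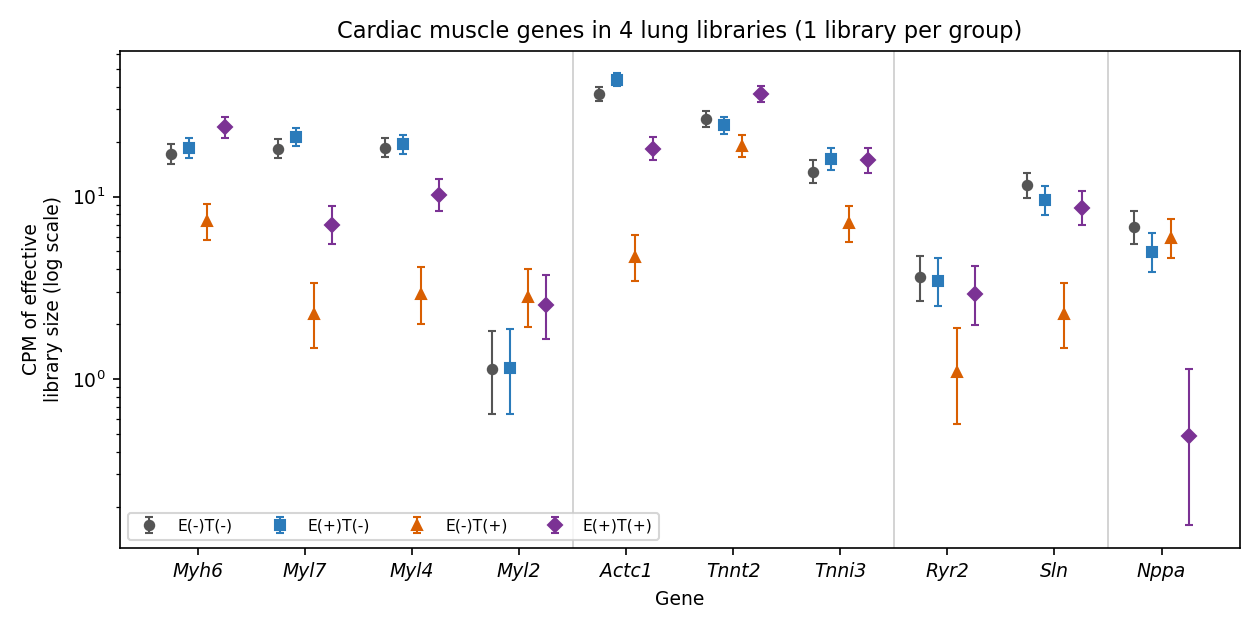
Levels of the 10 cardiac muscle genes in the 4 lung libraries, as CPM of effective library size on a log axis, with bars for the exact 95% Poisson interval (counting error only). The cancer control triangles are the lowest of the 4 points for 8 genes, whereas Myl2 is higher in both tumor-bearing libraries and Nppa is low only in E(+)T(+).

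Because the libraries profile the 3' end, a transcript gives reads in proportion to its number and not to its length, and the order of genes within a library was read from the counts. In E(-)T(-) the order was Actc1, Tnnt2, Myl4, Myl7, Myh6, Tnni3, Sln, Nppa, Ryr2 and Myl2, in which the counting intervals of neighbours overlapped from Myl4 down to Sln. In E(+)T(-) the order was the same except that Myl7 came before Myl4, and neighbours overlapped from Tnnt2 to Tnni3 and between Nppa and Ryr2. Actc1 gave 23.7% and 26.9% of the reads of the 10 genes in these libraries. In E(-)T(+) Tnnt2 led with 34.3% of these reads, Actc1 gave 8.4%, and all neighbours from Myh6 to Ryr2 overlapped. In E(+)T(+) Tnnt2 led again with 28.9%, followed by Myh6 with 19% and Actc1 with 14.5%, the latter overlapping Myh6 by its interval, and Nppa came last. The leading gene was thus cardiac actin without tumor and cardiac troponin T with tumor.

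The question for the first comparison was what exercise did in lungs without tumor. No member differed by 2-fold or more between E(+)T(-) and E(-)T(-) (0 of 10), where 9.98% of the 15164 rows with a mean normalized count of at least 4 passed this limit in either direction. The differences of the deposited log2 values ran from -0.44 for Nppa (interval of the read ratio -0.93 to 0.02) to 0.26 for Actc1 (0.08 to 0.43), with a median of 0.04 against 0.00 for all tested rows. The interval excluded 0 for Actc1 alone. For Myl2, with 15 and 16 reads, the interval of -1.10 to 1.13 did not exclude a difference of 2-fold.

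In resting mice, the tumor-bearing lung held far fewer reads of most cardiac genes than the normal lung. Between E(-)T(+) and E(-)T(-), 6 of 10 members were lower by 2-fold or more, against 25.7% of all tested rows, and 1 of 10 was higher, against 20.6%. Myl7 was 7.77-fold lower (log2 difference -2.96, interval -3.66 to -2.41) and Actc1 7.72-fold lower (-2.95, -3.42 to -2.56). Myl4 was 6.19-fold lower (-2.63, -3.24 to -2.13) and Sln 4.9-fold lower (-2.29, -3.01 to -1.73). Those 4 genes, the atrial light chains, cardiac actin and sarcolipin, showed the largest differences of the set. Ryr2 was 3.12-fold lower (-1.64, -2.76 to -0.79) and Myh6 2.32-fold lower (-1.21, -1.61 to -0.85).

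The remaining members differed less or ran the other way. Tnni3 differed by -0.94 (-1.35 to -0.56) and Tnnt2 by -0.49 (-0.74 to -0.24), both inside the 2-fold limit. The interval for Nppa, around -0.19, included 0 (-0.67 to 0.27), so a difference was not detectable at this depth. Myl2 was 2.4-fold higher (1.27, 0.41 to 2.29). The median over the members was -1.43 against -0.03 over all tested rows.

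With tumor, most members were higher in the exercised mice. Between E(+)T(+) and E(-)T(+), 7 of 10 members were higher by 2-fold or more, against 24.3% of all tested rows, and 1 of 10 was lower, against 17.7%. Actc1 was 3.88-fold higher (1.96, 1.52 to 2.45), Sln 3.69-fold (1.88, 1.27 to 2.63), Myl4 3.42-fold (1.78, 1.22 to 2.43) and Myh6 3.25-fold (1.70, 1.34 to 2.10). Myl7 was 2.99-fold higher (1.58, 0.95 to 2.34), Ryr2 2.54-fold (1.34, 0.41 to 2.52) and Tnni3 2.2-fold (1.14, 0.75 to 1.56). This comparison and the one before it share the E(-)T(+) library. Tnnt2 stayed just inside the limit at 0.94 (0.70 to 1.20), and the interval for Myl2 included 0 (-0.16, -0.97 to 0.64). Nppa was 10.3-fold lower (-3.37, -5.28 to -2.31), resting on 5 reads against 65.

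The median over the members in this comparison was 1.46 against 0.01 over all tested rows. The count depends on how the libraries are scaled. Scaled by library totals alone, where the median of all tested rows moved to -0.59, 4 members were higher (Actc1, Sln, Myl4 and Myh6) and Nppa remained lower, while Myl7, Ryr2 and Tnni3 came to 0.99, 0.77 and 0.53, and the median over the members was 0.88. With hemoglobin left out of the totals, 7 members were higher and 1 lower.

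The last comparison set both exercised groups side by side. Between E(+)T(+) and E(+)T(-), 3 of 10 members were lower by 2-fold or more, against 13.0% of all tested rows, and 1 of 10 was higher, against 14.9%. Nppa was 8.7-fold lower (-3.12, -5.02 to -2.06), Myl7 3-fold lower (-1.58, -1.99 to -1.22) and Actc1 2.38-fold lower (-1.25, -1.50 to -1.01), whereas Myl2 was 2.13-fold higher (1.09, 0.17 to 2.16). Myl4 differed by -0.91 (-1.26 to -0.58), and Tnnt2 and Myh6 were on the other side of 0 with 0.57 (0.36 to 0.80) and 0.38 (0.12 to 0.64). The intervals of Tnni3, Ryr2 and Sln, with differences of -0.03, -0.23 and -0.14, included 0. The median was -0.19 against -0.00 for all tested rows, and it was -0.52 over the 8 members with a mean normalized count of at least 50. Under library totals alone, the median over the members was -0.59. Under that scaling, which moved the median of all tested rows to -0.41, Myh6 came to -0.04, Tnnt2 to 0.16 and Myl2 to 0.69, and Myl4 passed the limit at -1.32. Myl2 also came inside the limit, at 0.95, with a pseudocount of 4.

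**Figure D2:**
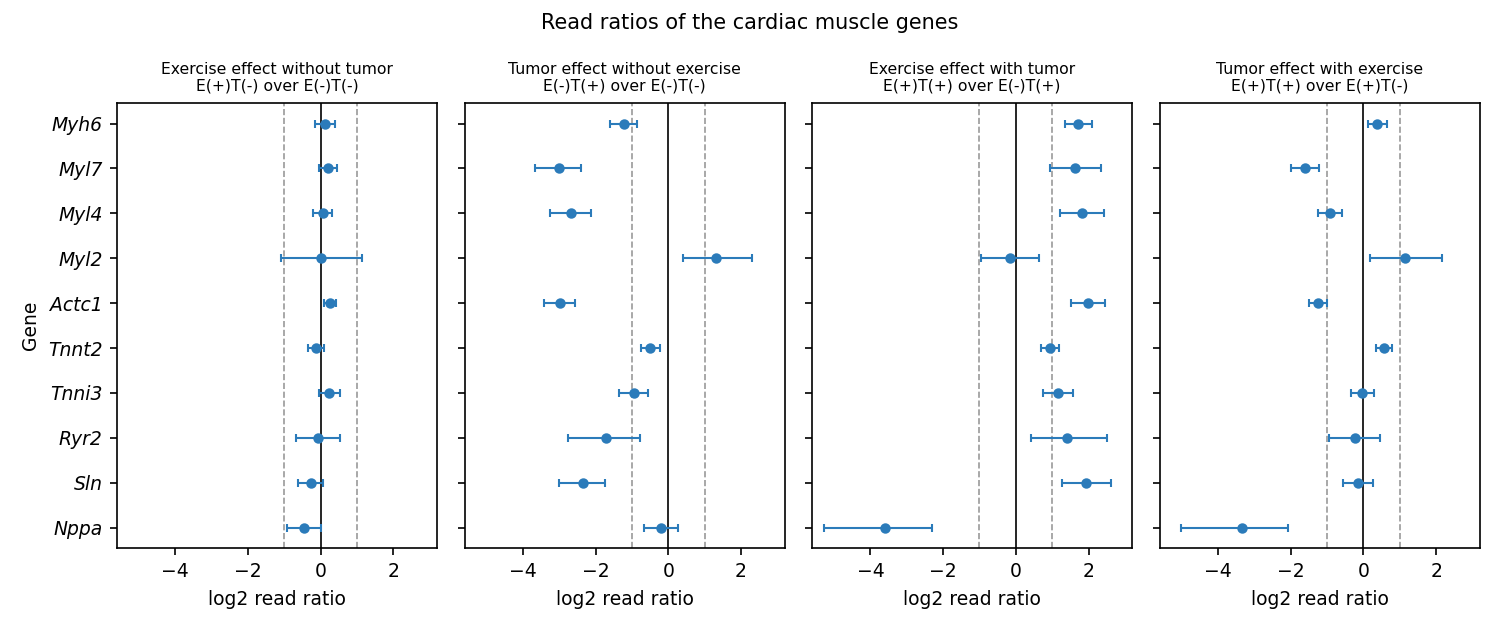
Log2 ratio of reads, scaled by effective library size, for the 10 genes in each of the 4 comparisons, with exact 95% intervals for counting error and dashed lines at the 2-fold limit. All points lie inside the limit for exercise without tumor, while Myl7 and Actc1 lie near -3 for tumor without exercise and Nppa lies beyond -3 in both comparisons of E(+)T(+).

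Ratios of paired genes inside a library do not move with its scaling. The share of Myl7 in the reads of both regulatory light chains was 44.6% in the cancer control (31.3 to 58.5) and 73.5% in the cancer exercise library (63.6 to 81.9), both below the tumor-free shares given above. The share of the atrial Myl4 in the reads of Myl4 and the ventricular and slow muscle Myl3 was 66.7% (61.8 to 71.3), 62.4% (57.5 to 67.1), 37.6% (27.4 to 48.8) and 52.2% (45.1 to 59.3). Both atrial shares were thus lowest in the resting tumor-bearing lung, and the E(+)T(+) intervals lay above those of E(-)T(+) for Myl7, while for Myl4 they overlapped.

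The heavy chains gave a different order. Myh6 made up 39.1% (35.2 to 43.1), 46.2% (41.8 to 50.6), 60.6% (51.7 to 69) and 56.3% (51.5 to 61) of the reads of Myh6 and Myh7, the beta heavy chain. Tnnt2 made up 42.2% (39 to 45.5), 36% (32.8 to 39.2), 80.3% (74.9 to 85) and 66.6% (62.5 to 70.5) of the reads of Tnnt2 and Actc1. Sln made up 67.4%, 65.4%, 37.3% and 56.7% of the reads of Sln and Pln, the inhibitors of the cardiac calcium pump. Alpha heavy chain and troponin T therefore took a larger share of their pairs in the tumor-bearing libraries, and sarcolipin a smaller share in E(-)T(+).

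Nppa parted from the atrial light chain in opposite directions. Its share of the reads of Nppa and Myl7 was 27% (22.5 to 32), 19% (15 to 23.6), 72.2% (61.8 to 81.1) and 6.49% (2.14 to 14.5). The intervals of both tumor-bearing libraries were separate from each other and from those of the tumor-free libraries.

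**Figure D3:**
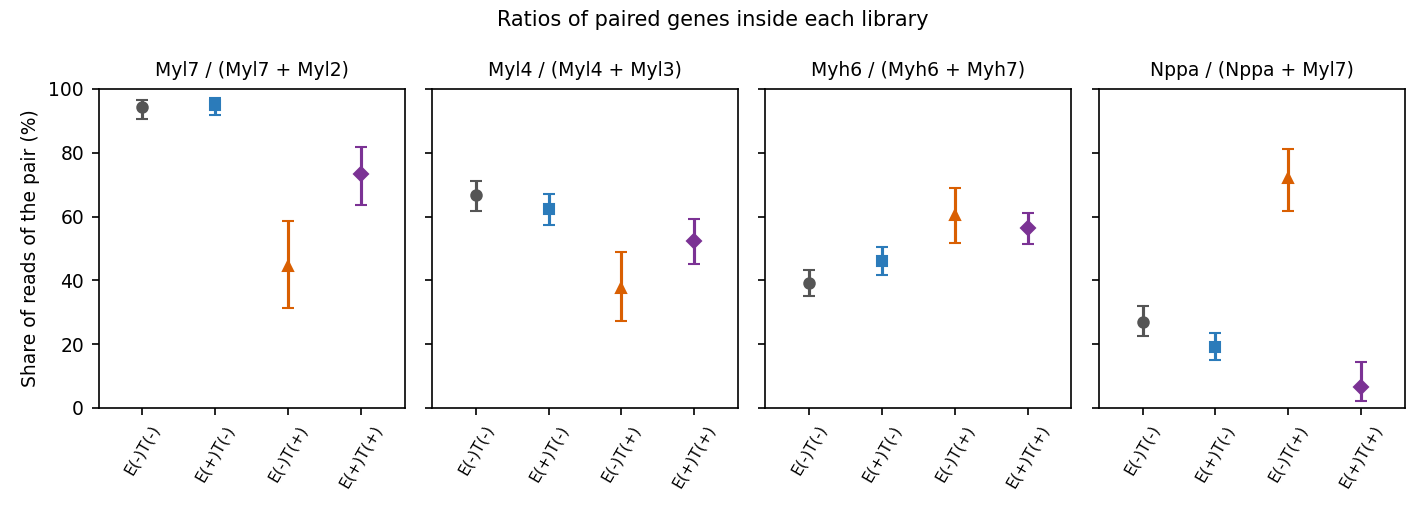
Share of reads in 4 gene pairs within each library, in percent from 0 to 100, with exact 95% Clopper-Pearson intervals (counting error only). The Myl7 share falls from above 94% in the tumor-free libraries to 44.6% in E(-)T(+) and 73.5% in E(+)T(+), and the Nppa share is highest in E(-)T(+) and lowest in E(+)T(+).

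The 10 genes did not share 1 profile across the libraries. Profiles were compared as log2 levels centred on each gene's mean, by the root mean square distance over the 4 libraries. The closest pairs were Actc1 with Myl7 (0.16) and with Myl4 (0.19), then Myh6 with Tnni3 (0.21) and Ryr2 with Sln (0.25). Ryr2 lay nearest to the median profile of the members (0.07), and Myl2 (1.20) and Nppa (1.72) lay farthest. Among 11194 other genes with a mean normalized count of at least 50, Taz (0.064), Zhx2 (0.073), Fam53b (0.074) and Plet1 (0.076) were among the nearest to that median profile. Such a profile was common, since 466 of the 11194 genes lay within 0.25 of it.

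Promoter sequences are shown for the closest pair, Actc1 and Myl7, and for Nppa, which moved apart from them. Each run is the 150 bases before the RefSeq gene start (GRCm38.p6) on the strand of the gene, 5′ to 3′. Capitals mark a CArG box, the element bound by serum response factor, and GATA on either strand, the core element of GATA factors.
Actc1 (chr2:114052876-114053025, minus strand): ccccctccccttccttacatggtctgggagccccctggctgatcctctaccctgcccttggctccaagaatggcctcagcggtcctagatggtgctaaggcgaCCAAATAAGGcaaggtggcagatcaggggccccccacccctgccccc
Myl7 (chr11:5898783-5898932, minus strand): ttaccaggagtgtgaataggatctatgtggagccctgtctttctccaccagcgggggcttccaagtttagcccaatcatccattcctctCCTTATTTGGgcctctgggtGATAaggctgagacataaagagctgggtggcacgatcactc
Nppa (chr4:148000572-148000721, plus strand): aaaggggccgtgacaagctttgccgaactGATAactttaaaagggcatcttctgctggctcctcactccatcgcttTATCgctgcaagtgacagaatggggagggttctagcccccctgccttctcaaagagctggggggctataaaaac
Counted from the gene start, the CArG box spans bases -47 to -38 in Actc1 and -61 to -52 in Myl7, and GATA lies at -41 to -38 in Myl7 and at -121 to -118 and -74 to -71 in Nppa. None of these matches overlaps another.

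RefSeq promoters of 300 bases, from 250 before to 50 after the start, were found for 9 of the 10 genes, in 11 windows, and Sln was not matched. Motifs were searched on both strands. A CArG box was present in Actc1 and Myl7 (2 of 11 windows) and in 1.63% of all 32851 windows of the table. GATA was found in 7 of 11 windows, against 57.9% of all, and CANNTG, the E-box, in 10 of 11, against 72.3%. CATTCC, the element of TEAD factors, was found in 3 of 11 windows, those of Myh6, Myl7 and Tnnt2 (14.7% of all), and AGGTGT, the T-box element, in 2 of 11, those of Nppa and Tnni3 (13.7%). No MEF2 site was found in these windows (3.19% of windows). Both Myl2 windows rest on RefSeq starts (122092724 and 122093189) upstream of the gene start given above (122100951). The RefSeq starts of Actc1 (114052875), Myh6 (54966607) and Tnni3 (4522528) lie inside the gene spans given above, and so does the Actc1 run printed above. For these genes and Myl2, the bases next to the gene start of the spans given above were therefore not searched. A match describes letters and not binding.

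Other genes of the cardiac program were taken from lists of known function, and their counts are to be read against the same shares of all tested rows (25.7% lower and 20.6% higher for tumor at rest, 24.3% higher and 17.7% lower for exercise with tumor). Of 20 other sarcomere genes, 19 passed the filter on low values, and 11 were lower and 0 higher by 2-fold or more in E(-)T(+) against E(-)T(-), with a median of -1.12. In E(+)T(+) against E(-)T(+), 10 of the 19 were higher and 0 lower, with a median of 1.09. Both counts include Mybphl, an atrial sarcomere gene with only 6, 15, 0 and 4 reads. Its intervals reached up to 0.13 and down to -0.51 in these comparisons, and so included 0. Myh7 was at log2 levels of 8.32, 8.02, 5.86 and 7.81, and differed by -2.46 (-2.93 to -2.06) and 1.95 (1.52 to 2.44) in these comparisons. Tcap, which caps titin at the Z-disc, differed by -1.86 (-2.77 to -1.16) and 2.17 (1.46 to 3.09). The Z-disc gene Myoz2 differed by -1.38 (-2.10 to -0.76) and the giant spring protein gene Ttn by -1.12 (-1.59 to -0.69) with tumor at rest, and Myom1 of the M-band by 2.30 (1.76 to 2.96) with exercise in tumor-bearing mice. Of the 19, 16 lay below 0 for tumor at rest and 17 above 0 for exercise with tumor, the direction of most members. The most read of them, Tpm1, had 4549, 4580, 4983 and 3298 reads and ran the other way. It differed by 0.50 (0.44 to 0.56) and -0.50 (-0.57 to -0.44). The list with Tpm1 summed to 463, 459, 577 and 317 CPM, highest in the cancer control.

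Calcium handling genes outside the member set were mixed. Of 13, 12 passed the filter, and in E(-)T(+) against E(-)T(-) 4 were lower and 2 higher (median -0.39), while in E(+)T(+) against E(-)T(+) 4 were higher and 2 lower (median 0.52), counts near the shares of all tested rows. The store protein Casq2 and the junction protein Jph2, chosen after their values were seen to account for these counts, had 33, 35, 11 and 38 reads and 56, 65, 11 and 38 reads, and were among the lower genes at rest (-1.15 and -1.89) and the higher ones with exercise (1.79 and 1.79). Hrc, likewise counted, had only 12, 18, 2 and 5 reads, and its interval for exercise with tumor (-1.20 to 4.81) included 0. Srl, with 8, 26, 15 and 21 reads, was the other higher gene at rest, and its interval (-0.06 to 2.72) also included 0. The sodium calcium exchanger gene Slc8a1 differed by -1.37 (-1.81 to -0.98) with tumor at rest, and the kinase gene Camk2d by 1.71 (1.57 to 1.86), with 516, 476, 1313 and 404 reads in the 4 libraries. With exercise in tumor-bearing mice, Camk2d differed by -1.60 (-1.77 to -1.44), the L-type calcium channel gene Cacna1c by -1.10 (-1.72 to -0.55) and S100a1, a calcium sensor, by 1.12 (1.02 to 1.23). Camk2d and Cacna1c ran against Ryr2 and Sln in this comparison.

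Among 14 conduction and ion channel genes, 11 passed, with 5 lower and 2 higher (median -0.58) for tumor at rest and 4 higher and 2 lower (median 0.07) for exercise with tumor. Popdc2, a membrane protein of cardiac and skeletal muscle, differed by -2.86 (-3.85 to -2.15) and 1.80 (0.99 to 2.84), and the potassium channel gene Kcnq1 by -2.18 (-2.63 to -1.79) and 1.65 (1.22 to 2.12). Gja5, the atrial and arterial gap junction gene, had 64, 49, 5 and 30 reads, and Kcnip2, Kcnj3 and Hcn2 also counted among these genes, all named after their values were seen. The pacemaker channel gene Hcn2 had 7, 4, 15 and 6 reads and was highest in the cancer control, opposite to Gja5. Its interval for exercise with tumor (-2.88 to 0.22) included 0.

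Of 15 transcription factor genes, 10 passed, with 5 lower and 2 higher (median -1.15) for tumor at rest and 5 higher and 3 lower (median 0.88) for exercise with tumor. The T-box gene Tbx5 differed by -2.40 (-2.75 to -2.08) and 2.09 (1.76 to 2.46), and Tbx3 by -3.09 (-3.34 to -2.86) and 2.85 (2.61 to 3.11). Gata6 differed by -2.44 (-2.69 to -2.21) with tumor at rest, and Mef2c by 1.85 (1.69 to 2.03) with exercise in tumor-bearing mice. These factors are also expressed by other lung cells. Shox2, a factor whose sites include the sinus node and limb but are not limited to them, ran opposite to them with 2, 4, 273 and 25 reads. The rest of these counts were Myocd (21, 48, 1 and 38 reads), Tbx18 (2, 9, 6 and 6), Tbx20 (6, 10, 7 and 2) and Gata4 (16, 15, 14 and 1), with Mef2c also lower and Gata6 also higher, named after their values were seen. Gata4, a core cardiac factor, was low in E(+)T(+) alone, as was Nppa, but on 1 read, and Tbx20 with 2 reads was also lowest there. A link of these genes to Nppa was not tested.

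The partners of Nppa lie in the natriuretic peptide system, and Nppa was read beside them. Of 8 genes, 6 passed, with 4 lower and 0 higher (median -1.76) for tumor at rest and 3 higher and 1 lower (median 1.14) for exercise with tumor. Npr1, the receptor that makes cyclic GMP, differed by -2.63 (-2.95 to -2.34) and 1.93 (1.63 to 2.27). Npr3, the clearance receptor, differed by -2.49 (-2.68 to -2.32) and 2.48 (2.31 to 2.67), and Mme, the protease neprilysin, which degrades the peptide, by -4.16 (-4.49 to -3.86) and 2.76 (2.45 to 3.11). Npr2, the receptor of C-type peptide, differed by -1.03 (-1.26 to -0.81) for tumor at rest. Npr2 differed by only 0.34 (0.08 to 0.61) for exercise with tumor. Npr1 and Npr3 were thus low where Nppa was still at 65 reads, in E(-)T(+), and higher where Nppa was at 5 reads, in E(+)T(+), whereas Npr2 stayed within 2-fold in the latter comparison. This opposite order did not extend to the tumor-free libraries. There Npr1 had 843 and 756 reads and Npr3 2103 and 3061, beside 96 and 65 reads of Nppa. Corin, the protease that cuts the Nppa precursor in heart muscle, was the gene that was lower and had only 7, 8, 5 and 0 reads. Its interval for exercise with tumor reached up to 0.22 and so included 0. The related hormone gene Nppb had 0, 2, 1 and 5 reads.

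Energy metabolism genes of striated muscle resembled the sarcomere for tumor at rest and for exercise with tumor. All 9 passed, with 7 lower and 1 higher (median -2.11) for tumor at rest and 7 higher and 0 lower (median 1.31) for exercise with tumor. Fabp3, which carries fatty acids in muscle, differed by -2.11 (-2.75 to -1.59) and 1.95 (1.40 to 2.61). The muscle forms of cytochrome oxidase subunits, Cox7a1 and Cox6a2, differed by -2.53 (-3.24 to -1.97) and -1.04 (-1.30 to -0.79) for tumor at rest, and by 1.01 (0.31 to 1.79) and 1.95 (1.72 to 2.20) for exercise with tumor. Eno3, the muscle enolase, was the exception with 1.91 (1.46 to 2.43) for tumor at rest. For exercise without tumor 2 were lower and 0 higher, with a median of -0.07 (9.98% of all tested rows in either direction). These were Ckm, which differed by -2.19 (-3.31 to -1.38), and Ckmt2, by -1.73 (-2.81 to -0.90).

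Markers of other tissues moved in the same libraries. The 8 smooth muscle genes, such as Myh11, summed to 381, 400, 101 and 259 CPM, and 7 of 8 were lower for tumor at rest (median -2.46) and 7 of 8 higher for exercise with tumor (median 1.98). The 8 alveolar epithelium genes summed to 19835, 22887, 2965 and 11406 CPM, and the 8 endothelium genes to 2886, 2709, 272 and 1402. All 8 of each list were lower for tumor at rest (medians -2.67 and -3.48) and all 8 higher for exercise with tumor (medians 2.59 and 3.04). Genes of proliferating cells ran the other way, with 28.7, 57.9, 985 and 211 CPM. Most cardiac genes therefore shared their direction with lung epithelium, endothelium and smooth muscle, and the part of the tissue's makeup in the differences was not tested.

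Skeletal muscle could add shared genes such as Myh7, so its own markers were counted. Its 19 genes summed to 21.1, 21.4, 21.8 and 31.6 CPM, with 7, 5, 2 and 2 of them at 0 reads, and the most abundant had 49 to 93 reads in a library. For tumor at rest 3 of the 12 that passed were lower and 3 higher (median -0.14), and for exercise with tumor 10 were higher and 0 lower (median 1.52). Its part in the cardiac results of E(+)T(+) was not tested. The 5 genes of pericardium and mesothelium summed to 80.4, 79.9, 307 and 71.9 CPM, of which Msln gave 620, 488, 2692 and 688 reads. The list did not move as 1 group: for tumor at rest 1 gene (Msln) was higher and 2 (Lrrn4 and Upk3b) were lower, with a median of -0.66, and for exercise with tumor 1 (Lrrn4) was higher and 1 (Msln) lower, with a median of 0.09. Lrrn4 had 174, 285, 28 and 117 reads, opposite to Msln.

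**Figure D4:**
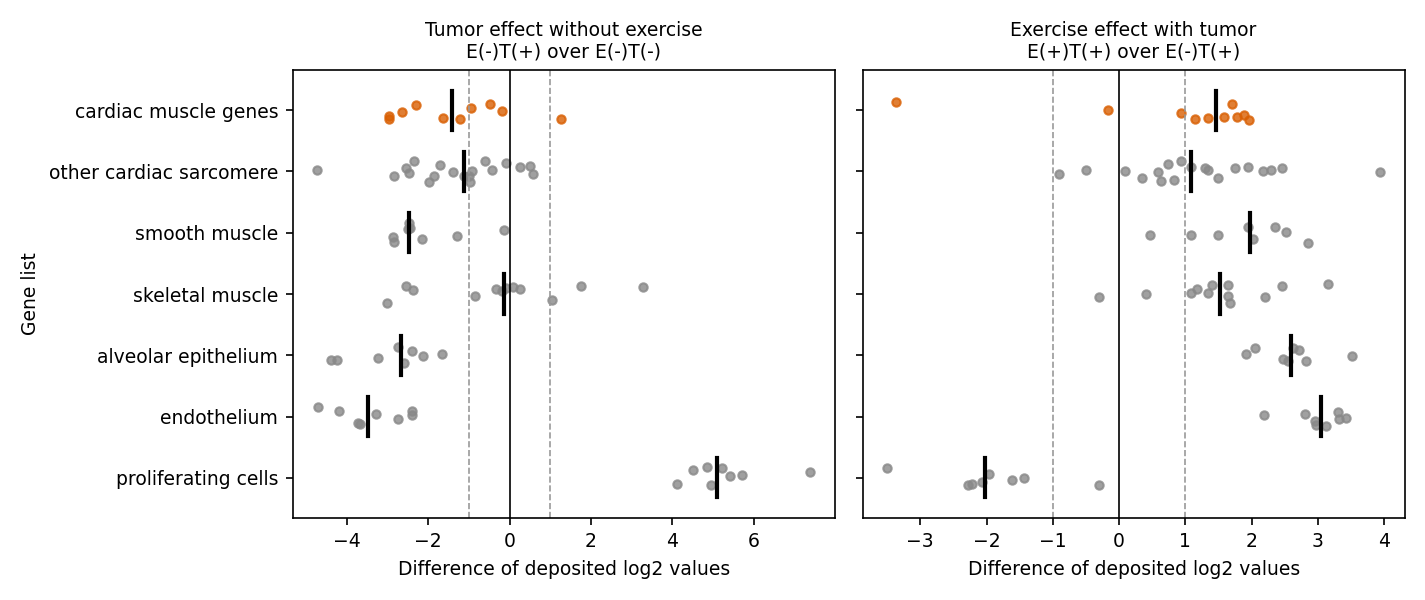
Differences of deposited log2 values for the genes of 7 lists that passed the filter, for tumor without exercise (left) and exercise with tumor (right), with black bars at the medians and dashed lines at the 2-fold limit. The cardiac median lies at -1.43 on the left and 1.46 on the right, on the same side as smooth muscle, alveolar epithelium and endothelium and opposite to proliferating cells.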

How the data were processed

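Lung RNA was profiled once per group (4 libraries). Per the labels and methods, the authors sequenced QuantSeq 3' libraries, aligned reads with Bowtie2, counted them with bedtools coverage and normalized them with the quantile method of edgeR. The submitters' processing notes name mm10, and versions, annotation and strand use are not given in the sources used here. The authors deposited log2 values of the normalized read count plus 1, with 3 decimals.

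Whole reads were recovered by inverting that library size adjustment in R 4.3.3 at a common dispersion of 0.372. All 93128 values returned within 0.001 (100%), and 94.6% resolved to a single read. The values carry no SD, and precision is that of counting. Differences are of deposited log2 values over the 15164 rows with a mean normalized count of at least 4, with a limit of 2-fold. Intervals are 95% exact (Poisson, or Clopper-Pearson from scipy 1.17.1 under Python 3.11.15). Those of read ratios rest on effective library sizes (reads times the library factors that the deposited values imply), those of summed levels on library totals, and those of shares on the reads of the pair alone. The floor is 3 reads. Coordinates are from GENCODE on GRCm38.

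Members and lists were chosen with earlier results of these data known. Of each other list, up to 4 genes past the limit were named by largest difference, with an interval excluding 0 and a mean of at least 50, plus annotated genes overlapping a member and the 5 genes with the nearest profile. Some items that these rules name are not reported here. Genes given only by reads were chosen after their values were seen, as checks. Alternatives were other scalings, a pseudocount of 4, no filter, a filter of 50 and leaving out Actc1.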

Additional observations from a re-analysis of the deposited data

Results flagged for a closer look

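Myh6 and Tnnt2 stood out because the tumor-bearing library lay below its tumor-free counterpart at rest and above it with exercise, with each counting interval excluding 0. For Myh6, the alpha myosin heavy chain, the log2 difference was -1.21 without exercise and 0.38 with exercise. For Tnnt2, cardiac troponin T, it was -0.49 without exercise and 0.57 with exercise. The difference between these effects was not tested, since each group holds 1 library. Scaled by library totals alone, the values with exercise were -0.04 for Myh6 and 0.16 for Tnnt2.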

How the results depend on the processing

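Of 160 values of single members under other scalings and a pseudocount of 4, 149 stayed within the counting interval of the reported value, 11 moved beyond it and 0 reversed a 2-fold call, and all 11 moved under library totals alone in the comparisons with E(+)T(+). Under that scaling 5 members passed the 2-fold limit for exercise with tumor (4 higher, 1 lower) in place of 8. The counts for the other comparisons stayed within 1.5 times, although totals without hemoglobin took Tnni3 past the limit for tumor at rest (-1.03). Counts of the other lists were made on the deposited scale only. The summed level was 195, 193, 65.8 and 142 CPM of totals without hemoglobin, 154, 162, 55.4 and 126 CPM of effective size, and 127, 121, 59.4 and 83 CPM without Actc1, with the cancer control lowest under each of these settings. Totals without hemoglobin moved the median of all rows for tumor at rest to -0.13. Depth limited Ryr2, Myl2 and Nppa most, with at least 1 library of 5 to 16 reads each. No paired analysis was possible because each group holds 1 library. The cause of these shifts was not tested.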
